A study of Sus scrofa with 8 samples.

Results

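Complex I genes of infarcted and remote pig myocardium were taken from the deposited comparison of both regions. Members were chosen by a gene symbol starting with NDUF in that table, and so on measured values, because the table is limited to transcript clusters that changed 2-fold or more between infarcted and remote tissue, at p under 0.05 without adjustment. The rule found 33 transcript clusters for 32 genes among the 25470 clusters of the array. A transcript cluster is the set of array probes that is read as one transcript. The 32 genes were 29 subunits of complex I, out of 37 nuclear-encoded subunits listed, and 3 assembly factors out of 8 listed. Nuclear subunits without a name in that table include NDUFS7, NDUFS4, NDUFV3, NDUFA6, NDUFA11, NDUFB4 and NDUFB10, and these were not analysed here. Subunits encoded by mitochondrial DNA have other symbols and are outside the rule. Since the contrast between regions chose the genes, their differences between infarcted and remote tissue are a description and were not tested.

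Samples came from 4 young female Large White pigs in which a balloon closed the left anterior descending coronary artery for 90 min and was then removed. From each heart 1 sample of the infarcted anterior wall and 1 sample of the remote posterior wall of the left ventricle were taken, so that 4 infarcted and 4 remote samples formed 4 pairs. The design text of the series places collection at day 7 and the paper's methods at day 10. All pigs received amiodarone, acetylsalicylic acid and antibiotics, and no heart without an infarction was measured, so remote tissue is not healthy tissue. Animals entered the study only with an infarct size and a cardiac function within set limits. RNA was read on porcine gene arrays, and the values are log2 signals normalized by the authors.

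Complex I is the first enzyme of the mitochondrial respiratory chain. It takes electrons from NADH, passes them over a flavin and a row of iron-sulfur clusters to ubiquinone, and pumps protons across the inner membrane. Core subunits, which bacteria also have, hold the redox groups and the pumps. Those encoded in the nucleus all belong to the matrix arm, the part that stands in the matrix and carries NADH and quinone sites. Accessory subunits surround the core and occur in the matrix arm as well as in the membrane arm, which holds the proton pumps. Assembly factors help to build the complex and are not part of the finished enzyme. Heart muscle is rich in mitochondria and depends on this chain for most of its ATP.

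Both arrays of pig 4 had a narrower spread of log2 signals (SD over all clusters 1.46 and 1.49) than the other arrays (1.68 to 1.84), and both are given separately below. The median log2 signal of an array lay between 2.96 and 3.22. NDUFA7, NDUFAF4 and NDUFS5 each fell below that median on 1 array, where a signal above background is not shown. For the label of the tissue, 14 of 20 listed cardiomyocyte markers carried a name, MYH7, MYL2 and TTN among them, and their mean log2 signal was 9.37 to 10.02 in remote and 6.35 to 8.36 in infarcted samples. MYH6, TNNT2, TNNI3, MB, CKM and DES had no name here.

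All 32 genes had a lower mean signal in infarcted than in remote tissue. Over the 29 subunits the median difference was −1.90 on the log2 scale, that is 3.73-fold lower, and the means of single subunits ran from −2.85 for NDUFA13 to −0.97 for NDUFS5. The median over all 25470 clusters was 0.02. The samples are whole tissue, in which fewer cardiomyocytes and less RNA per cardiomyocyte cannot be told apart. Of the 32 genes, 29 were lower in the infarcted sample of each of the 4 pigs. The exceptions were NDUFA2, NDUFAB1 and NDUFC1, in which the infarcted sample of pig 4 was slightly higher than the remote one.

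**Figure D1:**
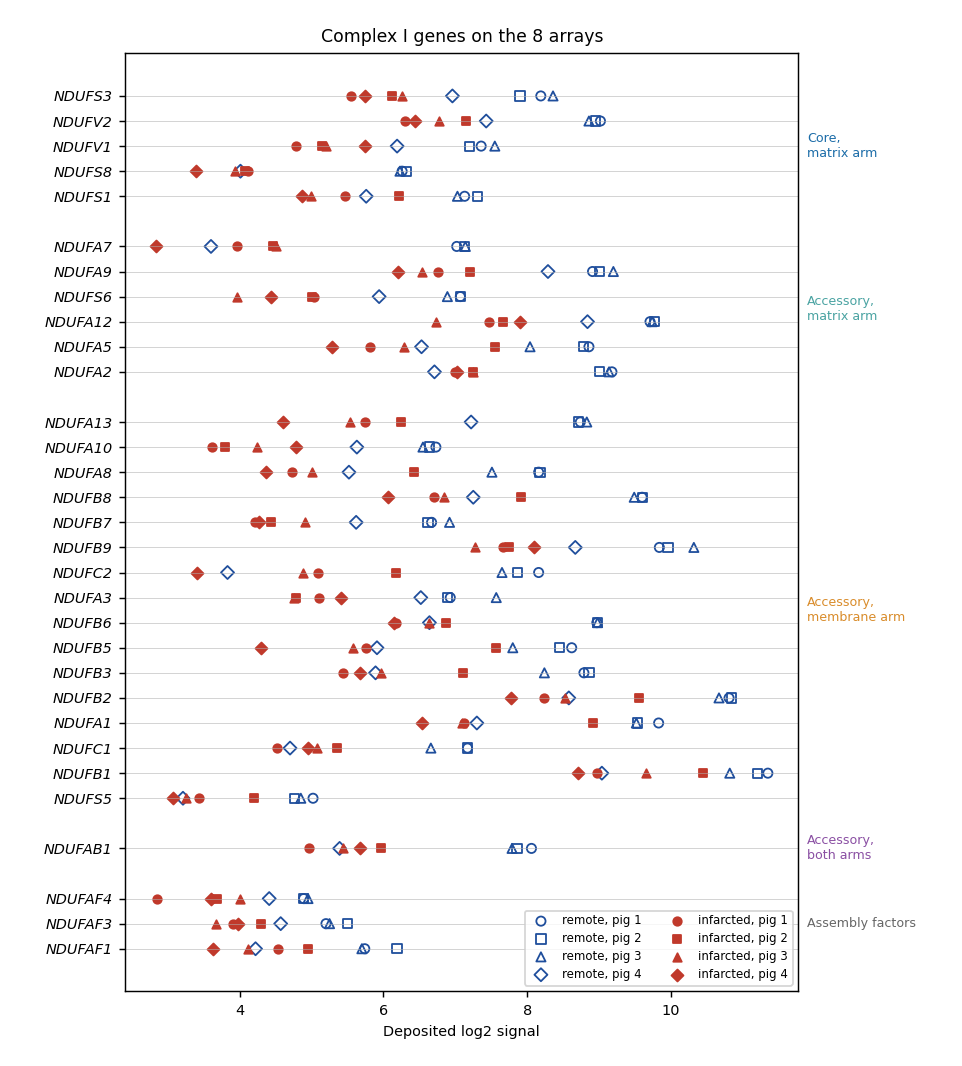
Deposited log2 signal (x axis) of 31 complex I genes (rows, grouped by class) in each sample, with open blue symbols for remote and filled red symbols for infarcted tissue and 1 symbol shape per pig. Remote samples of pigs 1 to 3 lie on the right, within 0.82 of each other in every row, and the remote sample of pig 4 (open diamond) lies to their left in every row.

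Core subunits of the NADH module take up electrons. NDUFV1 binds NADH and the flavin, and it read 7.36, 7.20, 7.55 and 6.19 in the remote samples of pigs 1 to 4 and 4.78, 5.15, 5.20 and 5.74 in their infarcted samples. Its mean difference was −1.86 ± 0.96 (SD, n = 4 pigs), and each infarcted value was below each remote value. NDUFV2, an iron-sulfur subunit beside the flavin site, read 9.02, 8.95, 8.86 and 7.43 in remote and 6.30, 7.15, 6.78 and 6.44 in infarcted tissue. Here too the regions did not overlap, with a difference of −1.90 ± 0.72. NDUFS1, the largest subunit of the matrix arm, read 7.13, 7.31, 7.03 and 5.76 in remote and 5.46, 6.21, 4.99 and 4.87 in infarcted tissue. Its difference was −1.42 ± 0.53, and the remote sample of pig 4 lay below the infarcted sample of pig 2.

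The quinone module, to which the next core subunits belong, passes electrons on to ubiquinone. NDUFS3 read 8.19, 7.90, 8.36 and 6.96 in remote and 5.55, 6.12, 6.26 and 5.75 in infarcted tissue, which gave the largest difference of the core at −1.93 ± 0.60 without overlap. NDUFS8, an iron-sulfur subunit between NADH and quinone sites, read 6.26, 6.32, 6.23 and 4.01 in remote and 4.11, 4.08, 3.94 and 3.39 in infarcted samples. In pigs 1 to 3 its difference was the most even of all members (−2.23 ± 0.07, SD, n = 3), while the remote signal of pig 4 was as low as the infarcted signals of the other pigs. NDUFS8 is measured by 2 clusters with equal values on all 8 arrays, and it was counted once.

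The matrix arm also holds accessory subunits, of which 6 were measured. The largest difference was that of NDUFA7, with 7.02, 7.13, 7.14 and 3.60 in remote and 3.96, 4.46, 4.50 and 2.83 in infarcted samples (−2.28 ± 1.03). The remote sample of pig 4 lay below all infarcted samples of the other pigs for this gene. NDUFA12, which takes its place in the NADH module late in assembly, read 9.71, 9.77, 9.74 and 8.84 in remote and 7.47, 7.66, 6.73 and 7.90 in infarcted tissue (−2.08 ± 0.85). NDUFS6, a zinc-binding subunit, read 7.07, 7.07, 6.89 and 5.94 in remote and 5.04, 5.01, 3.96 and 4.44 in infarcted tissue (−2.13 ± 0.59). Neither of these 2 genes showed an overlap between regions. NDUFA9, which sits near the junction of both arms, read 8.91, 9.01, 9.20 and 8.29 in remote and 6.76, 7.21, 6.54 and 6.20 in infarcted samples. Its difference of −2.17 ± 0.36 had the lowest SD over the 4 pigs of all members. NDUFA2 had the smallest difference of this class (−1.38 ± 1.15), with 9.18, 9.01, 9.14 and 6.71 in remote and 6.99, 7.25, 7.24 and 7.03 in infarcted samples. Its infarcted values were nearly equal in the 4 pigs, so the large spread came from the remote sample of pig 4. NDUFA5 had −1.82 ± 0.85.

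In the proximal membrane arm, next to the junction, NDUFA13 had the largest difference of all members. It read 8.74, 8.72, 8.83 and 7.22 in remote and 5.74, 6.24, 5.54 and 4.60 in infarcted samples, a mean difference of −2.85 ± 0.37 or 7.20-fold. This subunit, also known as GRIM-19, had differences from −3.29 to −2.48 in the 4 pigs, with −2.62 in pig 4. NDUFA10, which resembles a nucleoside kinase, read 6.73, 6.64, 6.55 and 5.63 in remote and 3.62, 3.80, 4.24 and 4.78 in infarcted tissue (−2.28 ± 1.01). NDUFC2 read 8.16, 7.87, 7.65 and 3.83 in remote and 5.09, 6.17, 4.88 and 3.40 in infarcted tissue (−1.99 ± 1.20). Pig 4 was low in both regions for NDUFC2, and only in remote tissue for NDUFA10. NDUFA1, a small subunit with a single membrane helix, read 9.83, 9.54, 9.52 and 7.30 in remote and 7.12, 8.92, 7.10 and 6.53 in infarcted tissue (−1.63 ± 1.09). Its infarcted sample of pig 2 stayed close to the remote samples of pigs 1 to 3. Pig 4, low in both regions, had a similarly small difference (−0.77, against −0.62 in pig 2). The smallest difference of all subunits was that of NDUFS5, which lies on the outer face of the inner membrane. It read 5.02, 4.76, 4.85 and 3.21 in remote and 3.44, 4.20, 3.25 and 3.07 in infarcted samples (−0.97 ± 0.74). Its remote signal in pig 4 was near the array median of 3.18. Infarcted signals of pigs 1, 3 and 4 were also near theirs (3.01, 3.05 and 3.22). The part of low signals in this small difference was not tested. NDUFC1 read 7.17, 7.17, 6.66 and 4.70 in remote and 4.52, 5.35, 5.08 and 4.95 in infarcted tissue (−1.45 ± 1.22), so that pig 4 had nearly the same signal in both regions. NDUFA8 (−2.21 ± 0.98) and NDUFA3 (−1.96 ± 0.71) completed the proximal arm.

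The distal membrane arm was represented by 8 NDUFB subunits. NDUFB8 read 9.60, 9.61, 9.49 and 7.25 in remote and 6.71, 7.91, 6.84 and 6.07 in infarcted samples (−2.10 ± 0.80). NDUFB6 read 8.97, 8.98, 8.98 and 6.64 in remote and 6.17, 6.87, 6.63 and 6.15 in infarcted tissue (−1.94 ± 1.01). For NDUFB6 the remote values of pigs 1 to 3 differed by 0.01 at most, while pig 4 was at the infarcted level. NDUFB2 read 10.81, 10.84, 10.67 and 8.58 in remote and 8.23, 9.56, 8.53 and 7.77 in infarcted tissue (−1.70 ± 0.80). NDUFB9, which binds the acyl carrier protein, and NDUFB7 were the only members of this group without overlap between regions, both with a mean difference of −2.0 (SD 1.04 and 0.47). NDUFB5 read 8.62, 8.45, 7.80 and 5.91 in remote and 5.76, 7.56, 5.57 and 4.30 in infarcted samples (−1.90 ± 0.84). Here pig 4 was the lowest in both regions, and pig 2 had the smallest difference. NDUFB1 had the smallest difference of the distal arm (−1.16 ± 0.88), with 11.35, 11.21, 10.82 and 9.04 in remote and 8.97, 10.45, 9.65 and 8.71 in infarcted samples. NDUFB3 had −1.90 ± 1.30. The acyl carrier protein itself, NDUFAB1, is bound in both arms, and it read 8.06, 7.86, 7.79 and 5.39 in remote and 4.96, 5.97, 5.44 and 5.68 in infarcted samples (−1.76 ± 1.46).

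**Figure D2:**
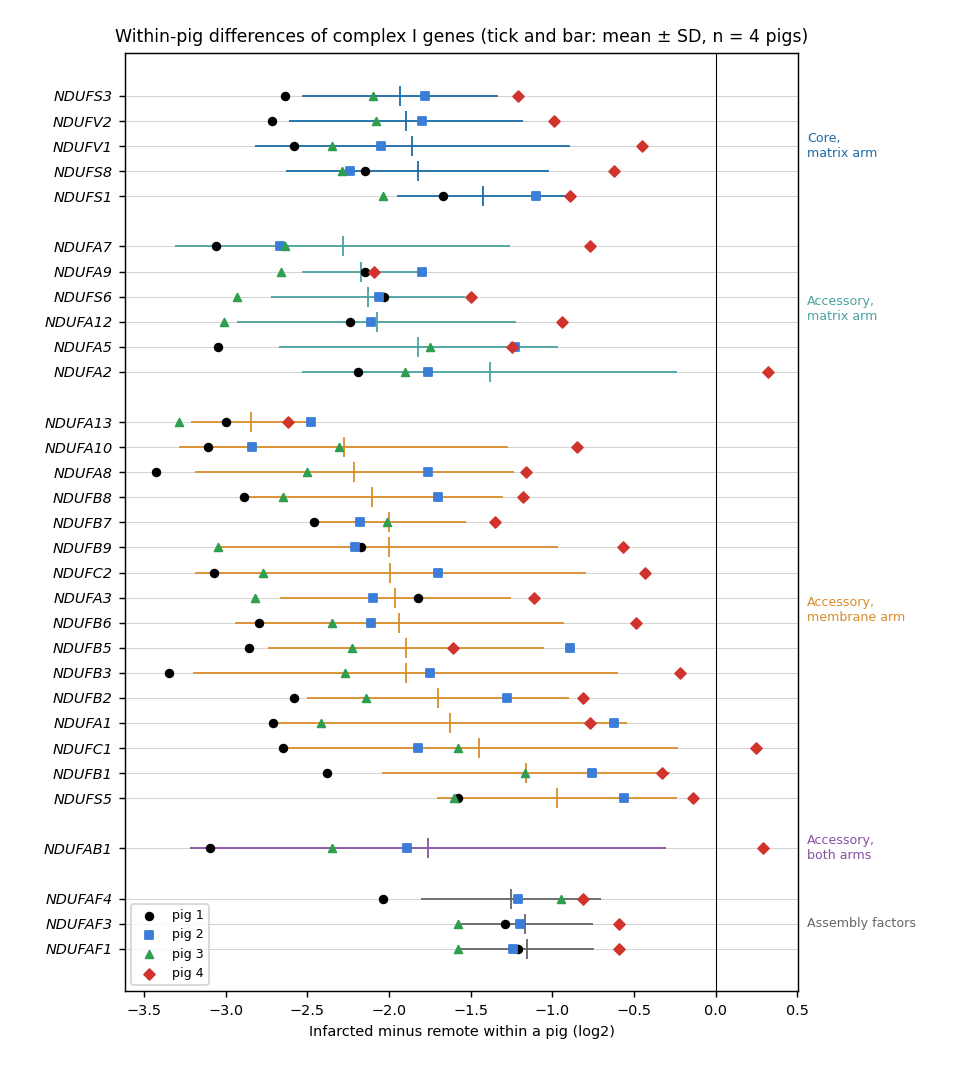
Infarcted minus remote log2 signal within each pig (x axis, symbols by pig) for 31 genes grouped by class, with the mean as a tick and the SD over 4 pigs as a bar. Pig 4 (red diamond) lies closest to 0 in most rows, and NDUFA9 and NDUFA13 have the smallest spread over pigs (SD 0.36 and 0.37).

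Taken over both arms, core and accessory subunits differed little in the size of the change. The median was −1.84 over the 6 core subunits and −1.96 over the 23 accessory ones, and this gap of 0.12 was smaller than its SD over pigs of 0.16. It was 0.34, 0.01, 0.26 and 0.06 in pigs 1 to 4. Core genes were thus on the side of the smaller change in every pig, by very little in pigs 2 and 4. All core genes measured here belong to the matrix arm, so class and arm were mixed in this gap. Against the 6 accessory subunits of the matrix arm alone (median −2.10), the core had a gap of 0.26 with an SD over pigs of 0.30. That gap was −0.15, 0.14, 0.56 and 0.34 in pigs 1 to 4.

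Nor was one arm separated from the other. The matrix arm had a median of −1.88 over 12 subunits and the membrane arm −1.95 over 16, and the gap of 0.07 was smaller than its SD over pigs of 0.30. It was above 0 in pigs 1 and 3 (0.54 and 0.14) and below 0 in pigs 2 and 4 (−0.05 and −0.13). The matrix arm here joins core and accessory subunits. Its accessory subunits alone, with a median of −2.10, had a gap to the membrane arm of −0.15 with an SD over pigs of 0.41. That gap was 0.54, −0.175, −0.32 and −0.305 in pigs 1 to 4. Within the membrane arm, proximal and distal parts with 8 subunits each had medians of −1.98 and −1.92. This gap of −0.06 was small but had the same sign in each pig (−0.17, −0.07, −0.21 and −0.12). NADH and quinone modules of the matrix arm had medians of −1.90 (7 subunits) and −1.83 (5 subunits), with a gap below 0 in 3 pigs and above 0 in pig 4.

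Assembly factors had smaller differences than most subunits. NDUFAF1, part of an early assembly complex, read 5.74, 6.19, 5.70 and 4.22 in remote and 4.53, 4.95, 4.12 and 3.63 in infarcted samples (−1.16 ± 0.41). NDUFAF4 read 4.89, 4.89, 4.95 and 4.41 in remote and 2.85, 3.68, 4.0 and 3.60 in infarcted tissue (−1.25 ± 0.55), and NDUFAF3, which works with it on the quinone module, had −1.16 ± 0.42. Their median of −1.16 (2.24-fold) was 0.73 above that of the subunits, and this gap was positive in all 4 pigs (1.35, 0.59, 0.73 and 0.22). After quantile normalization the gap nearly closed in pig 4, with medians of −0.84 for assembly factors and −0.86 for subunits, and the membrane arm (−0.64) was then nearer to 0 than the assembly factors. Only 3 factors were measured, and factors with a smaller change than the table's limit carry no name. Their infarcted signals ran from 2.85 to 4.95, and the part of low signals in the smaller differences was not tested. Of 11 further assembly factors listed, ECSIT, a partner of NDUFAF1 in the same early complex, was the one with a name, and its difference was −2.08 (−3.05, −2.35, −2.16 and −0.74 in pigs 1 to 4).

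**Figure D3:**
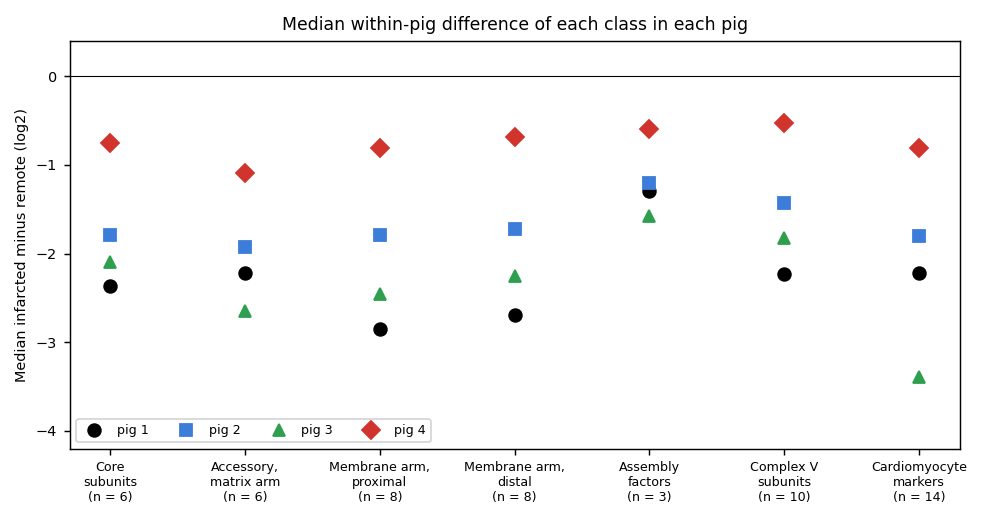
Median infarcted minus remote log2 difference (y axis) of each class of complex I genes, of complex V subunits and of cardiomyocyte markers (x axis, with the number of genes), with 1 symbol per pig. Pig 4 is nearest to 0 in all 7 groups, and assembly factors lie nearer to 0 than the 4 classes of complex I subunits in each pig.

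The size of the difference varied more between pigs than between classes of subunits. Medians over the 29 subunits were −2.64, −1.80, −2.31 and −0.81 in pigs 1 to 4. In pigs 1 and 3 all 29 subunits were lower by more than 1 on the log2 scale, against 25 in pig 2 and 10 in pig 4. The order of the subunits was only partly shared between pigs. Pearson's r of the differences across the 29 genes was 0.57 between pigs 2 and 3 and 0.49 between pigs 3 and 4, and it lay between 0.06 and 0.26 for the other 4 pairs. These are correlations across genes, which share arrays and are not independent replicates. NDUFS5 had the smallest difference in pigs 1 and 2 and NDUFB1 in pig 3, whereas NDUFA13 had the largest in pigs 3 and 4.

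In limma 17 of the 32 genes passed an adjusted p of 0.05 for lower signals in infarcted tissue, where 3.42% of all clusters did. The same contrast chose the genes, so nothing is read from this count. It comprised 5 of 6 core subunits, 3 of 6 accessory subunits of the matrix arm, 7 of 16 of the membrane arm and 2 of 3 assembly factors. With the pig as a replicate block the count was 28 (5.66% of all clusters), the rest being NDUFA2, NDUFB1, NDUFC1 and NDUFS5. Without pig 4 all 32 passed (7.48% of all clusters), as they did without its remote array alone (5.92%). Without infarcted replicate 1 the count was 10 (1.71% of all clusters), and it was 11 without remote replicate 1, 2 or 3 (1.63%, 1.66% and 1.98%). Without both arrays of pig 1, 2 or 3 it was 1, 6 and 3 (0.428%, 1.07% and 0.593% of all clusters). Infarcted and remote values did not overlap in 14 genes over all pigs (5.06% of all clusters with infarcted values below remote ones) and in all 32 over pigs 1 to 3 (13.6% of all clusters).

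The remote sample of pig 4 was low for complex I and for several other gene groups. In all 29 subunits it lay below the mean of the other 3 remote samples, with a median gap of −2.03 and a range from −4.06 for NDUFC2 and −3.50 for NDUFA7 to −0.75 for NDUFA9 and −0.61 for NDUFA3. Remote samples of pigs 1 to 3 differed from each other by at most 0.82, in NDUFA5 and NDUFB5, and by as little as 0.01 in NDUFB6. In infarcted tissue the gap between pig 4 and the others was smaller, with a median of −0.50, and 7 of the 29 subunits were higher in pig 4, NDUFA10 by 0.89 and NDUFV1 by 0.70 among them. Core subunits had a median gap in remote tissue of −1.29 and subunits of the membrane arm one of −2.25. The 3 assembly factors had −0.75. Other lists were as low in this sample, with a median gap of −1.94 for the 2 named genes of complex III, −1.78 for the 10 of complex V, −2.14 for ECSIT and −1.94 for 6 fibroblast and matrix genes, so the gap was not particular to complex I. It was −1.07 for 3 genes of complex IV and −0.76 for the 14 cardiomyocyte markers. A median subunit ranked above 98.1 to 98.5% of all clusters in the remote samples of pigs 1 to 3 and above 95.8% in that of pig 4.

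Other clusters in the same range of signal were also lower in this sample, by less. The 5247 other clusters whose remote signals in pigs 1 to 3 were in the range of the subunits had a median gap of −0.69. They were matched by this range alone (4.88 to 11.13), not by level within it. In those 3 samples the 90th percentile of all clusters was 5.91 to 6.11, while the median subunit read 8.04 to 8.50. The part of signal level in the unlike gaps was not tested. Quantile normalization gives all arrays the same distribution. After it the gap of these clusters became −0.14, while the subunits kept −1.64, the core −0.64 and the membrane arm −1.67. Single subunits then ran from −3.69 to 0.00. In infarcted tissue the subunits of pig 4 had a median gap of 0.07 after the same step. The cause of the lower values in this sample was not tested.

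**Figure D4:**
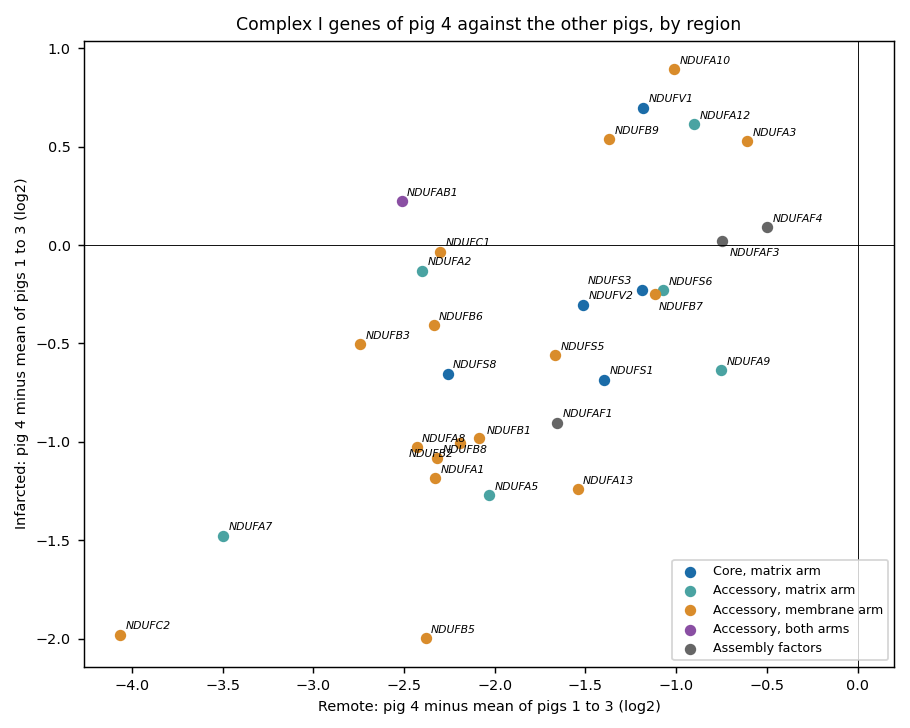
Signal of pig 4 minus the mean of pigs 1 to 3 in remote (x axis) and in infarcted tissue (y axis), both log2, for 31 genes coloured by class. All genes lie left of 0, NDUFC2 and NDUFA7 farthest, while values in infarcted tissue fall on both sides of 0.

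Smaller subunits tended to have the larger gap in pig 4. The deposited descriptions give a protein mass for 26 of the 29 subunits. For the 9 subunits of 20 kDa or more the gap of the remote sample ran from −2.26 to −0.75 with a median of −1.19, and for the 17 smaller ones from −4.06 to −0.61 with a median of −2.33. All 6 core subunits were among the 9 larger ones, so mass and subunit class were not separated here. Spearman's rho between mass and gap was 0.47 over the 26 genes, which all come from the same 4 arrays. The infarcted minus remote difference showed little of this (rho −0.27, and −0.11 without pig 4), and both mass groups had a median of −1.90.

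Over all 8 arrays, subunits varied together between pigs within a region. Each signal was set against the mean of its region, which removes the mean difference between regions. The table's p limit also depends on the spread within a region, so this does not remove all of the choice. Pearson's r over the 8 arrays was then taken for each of the 406 pairs of subunits. The median r was 0.83, and 99.3% of pairs were above 0, against 0.41 and 75.7% over all pairs of the 854 named clusters of the table that were lower in infarcted tissue. It was 0.77 within the matrix arm, 0.88 within the membrane arm and 0.83 between both arms, so pairs across arms lay between those within each arm. These values rest to a large part on pig 4. Without it, over 6 arrays, the median was 0.52 for the subunits, with 79.3% of pairs above 0, and 0.33 for the named lower clusters, with 68.1%. The matrix arm then had 0.45, the membrane arm 0.67 and pairs between both arms 0.47. The core dropped from 0.80 to 0.28, below the named lower clusters. The 3 assembly factors had a median r of 0.29 with each other, and −0.13 without pig 4. The named lower clusters were not matched to the subunits for signal, and the part of signal level in these values was not tested.

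Named clusters outside the NDUF genes that followed the mean deviation of the subunits most closely over the 8 arrays were C15H2orf47 (r = 0.998), C2H19orf70 (0.995), ATP5J2 (0.993), LOC100512926 (0.992) and DECR1 (0.992). ATP5J2 encodes a subunit of ATP synthase, DECR1 an enzyme of fatty acid breakdown in mitochondria, and LOC100512926 is described as a cytochrome c oxidase assembly factor. Without pig 4 the closest were ATP5A1 (r = 0.998), the catalytic-head subunit alpha of ATP synthase, ACTR3B (0.994) and C15H2orf47 (0.993). Then came 2 clusters of a locus described as cytochrome c oxidase subunit 5A (0.990). These are the top of a ranking over all named clusters of the table outside the members (1533 with the members included). Over so few arrays, centred on region means, such a ranking also gives high r by chance, and none of these r was tested.

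A pair of loci in the table are complex I genes by their description but carry placeholder symbols and are outside the rule. LOC100522775, which RefSeq names NDUFB11, a subunit of the distal membrane arm, read 8.80, 8.92, 8.93 and 6.10 in remote and 6.10, 6.20, 5.12 and 4.48 in infarcted samples. Its difference of −2.71 ± 0.89 (6.55-fold) was exceeded among the 29 subunits by that of NDUFA13 alone. LOC100737997, described as similar to NDUFA6, read 4.84, 4.80, 4.34 and 3.20 in remote and 3.09, 3.65, 2.55 and 3.31 in infarcted samples (−1.15 ± 0.89). Its infarcted value of pig 3 was below the median of that array (3.05), and other values were close to theirs, so a signal above background is not shown there. Both loci had their lowest remote value in pig 4. At the other end, the smallest arithmetic mean differences among the members were those of NDUFS5 (−0.97, under 2-fold), NDUFAF1, NDUFB1 and NDUFAF3. Several signals of NDUFS5 lay near the array medians, as given above. The table's fold limit applies to the authors' averages, which are robust ones and give a value far from the others less weight. These genes need not be the nearest to that limit.

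The named genes of the other complexes of the chain also had lower means in infarcted tissue. Of 15 subunits of complex V 10 were named and 5 fell in limma, where 3.42% of all clusters did, among them ATP5G1 (−2.11) and ATP5G3 (−1.81), with a median over the 10 of −1.58. Of 14 subunits of complex IV 3 were named and 2 fell, COX8H (−3.63) and COX5B (−2.01). The locus described as cytochrome c oxidase subunit 5A (−2.23) has a placeholder symbol and is not among these 3. UQCR10 (−1.73 ± 1.33) and UQCRB (−1.14 ± 0.46) of complex III did not pass. SDHD of complex II did not pass either, and its difference was uneven, with −2.32, −2.90, 1.09 and −1.55 in pigs 1 to 4. UQCR10, ATP5F1 and ATP5L were slightly higher in the infarcted than in the remote sample of pig 4 (0.12, 0.18 and 0.13). These names, too, depend on a change in the same samples.

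Named markers of cell types also differed between regions. Of 20 cardiomyocyte markers 14 were named, 10 fell in limma (3.42% of all clusters did) and the other 4 also had lower means. The largest differences were those of MYBPC3 (−3.43) and LDB3 (−3.41). Their median differences were −2.22, −1.80, −3.40 and −0.82 in pigs 1 to 4, beside −2.64, −1.80, −2.31 and −0.81 for the subunits. In the remote sample of pig 4 the markers had a median gap of −0.76 to the other remote samples, against −2.03 for the subunits and −1.94 for fibroblast and matrix genes, and in the infarcted sample they were higher by 1.13, against −0.50 for the subunits. Of 10 macrophage markers 7 were named and all 7 rose, where 2.47% of all clusters did, among them SPP1 (6.13) and LYZ (3.71), with a mean signal of 3.57 to 4.02 in remote and 5.28 to 7.50 in infarcted samples. Of 10 fibroblast and matrix genes 6 were named and 5 rose, among them FN1 (4.02) and POSTN (3.86), with 4.48 to 6.73 in remote and 7.73 to 9.38 in infarcted samples. Of 5 smooth muscle genes 3 were named, of which ACTA2 (2.46) and TAGLN (1.69) rose and SMTN (−1.04) fell. S100A8 (2.33) rose and S100A12 (1.84) did not pass among 6 neutrophil genes, and no endothelial or red cell marker of the lists carried a name. Markers, too, carry a name only where they changed between regions in these same samples, so nothing is read from the counts that fell or rose. The part of these cell types in the differences of complex I was not tested.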

How the data were processed

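RNA of 8 samples, 4 infarcted and 4 remote, was hybridised to GeneChip Porcine Gene 1.1 ST arrays. The authors used Transcriptome Analysis Console for normalization and annotation, and the deposited signals are log2 values for each cluster on each array, with a summarisation method not given in the sources used here. Their deposited comparison table holds log2 group averages, which equal Tukey biweight averages of these signals within 0.013, fold changes and p-values. Only its cluster IDs, symbols and descriptions were used, and its averages for a check of the IDs. Enrichment sheets were not used.

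For each gene the cluster with the highest mean signal was taken, and infarcted minus remote was formed within each pig. Pairs come from the animal in the labels, and deviations of both samples of a pig from the region means correlated with r of 0.113 to 0.441. The test between regions was run over all 25470 clusters (limma 3.58.1, R 4.3.3), with region as the only factor and Benjamini-Hochberg adjustment, and its script was tested on simulated data. "Fell" and "rose" mean an adjusted p under 0.05. Python 3.11.15, pandas 2.3.3, numpy 2.4.6 and matplotlib 3.10.9 were used. Members, classes and lists were chosen with earlier results of these data known. Members are named, except 1 that counts in all totals and medians and is not reported by name or drawn singly here, with all samples for core subunits, for the largest and smallest difference in each class and for genes with 1 sample far from its group. Alternatives were a replicate block, quantile normalization, median centring, a filter on dim clusters, averages over clusters, single symbols, means for medians and leaving out arrays. Sequences were not analysed here. The number of arrays limits the precision.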

Additional observations from a re-analysis of the deposited data

Results flagged for a closer look

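In 16 of 64 groups of 4 samples (32 genes in each region) 1 sample lay far from the others, with a gap to the nearest one above Dixon's critical share of the group's range, which chance alone exceeds in about 1 in 20 groups. All 16 were the remote sample of pig 4, and all were low. The log2 signals there were 7.30 for NDUFA1, 5.63 for NDUFA10, 8.84 for NDUFA12, 7.22 for NDUFA13, 6.71 for NDUFA2 and 3.60 for NDUFA7. They were 5.39 for NDUFAB1, 4.41 for the assembly factor NDUFAF4, 8.58 for NDUFB2, 6.64 for NDUFB6, 7.25 for NDUFB8 and 3.83 for NDUFC2. For NDUFS5, NDUFS6, NDUFS8 and NDUFV2 they were 3.21, 5.94, 4.01 and 7.43. These genes share arrays, so the 16 groups are not independent. In no group of infarcted samples did a sample lie this far from the rest.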

How the results depend on the processing

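The median difference of the 29 subunits (−1.90) lay between −2.23 and −1.63 when 1 pig was left out, was −1.77 after quantile normalization and −1.93 after median centring. The gap between core and accessory subunits stayed between 0.03 and 0.23 under all alternatives run. That between matrix and membrane arm (0.07) ran from −0.05 without pig 3 to 0.13 without pig 4, and so had no settled sign. The counts of calls moved far more. With the pig as a replicate block 28 of the 32 genes and 2604 of all clusters were called, against 17 and 1502 (clusters in both directions). Leaving out 1 array gave 10 to 32 genes and 694 to 2366 clusters. Leaving out both arrays of pig 1, 2, 3 or 4, chosen after seeing the data, gave 1, 6, 3 and 32 genes and 168, 395, 230 and 3661 clusters, and 32 genes and 4115 clusters without pig 4 together with the block. The cause was not tested. All members have 1 symbol, and only NDUFS8 has a second cluster, so these choices changed nothing. NDUFS5, NDUFA7 and NDUFAF4 were each below the array median on 1 array, and NDUFS5 was near it on others. The effect of this on their differences was not tested.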
